A study of Mus musculus with 11 samples.

Results

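The RNA levels of 9 genes that write, maintain or protect DNA methylation were examined in mouse embryonic stem cells (ESCs). They were chosen by name: the DNA methyltransferases Dnmt1, Dnmt3a and Dnmt3b, their catalytically inactive relative Dnmt3l, and the maintenance cofactors Uhrf1, Uhrf2, Hells, Zfp57 and Trim28. Earlier results of these data were known when they were chosen. All 9 were found among the 23284 genes listed for each of 11 RNA-seq libraries. All ESCs were grown with serum and leukemia inhibitory factor on gelatin. The groups were wild-type (WT) polyA libraries (n = 3), and ribodepleted total RNA libraries of WT cells at 0 h, WT cells at 4 h, Tet1/2/3 triple knockout (TKO) cells at 0 h and TKO cells at 4 h (n = 2 each). The 4 h cells had received 10 µg/ml α-amanitin, which blocks RNA polymerase II, and the 0 h cells are labelled as not treated. The TKO cells were an established line from earlier work, and whether they are 1 clone is not given in the sources used here. Whether the WT cells are the parent line is not given either, so genotype and cell line cannot be told apart. The study describes the α-amanitin libraries as biological replicates, but no label says that replicates came from separate cultures, so p-values measure the spread between these libraries. Because the RNA is from bulk cultures, fewer cells of a kind and less RNA per cell cannot be told apart.

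DNA methylation is set on CpG sites by DNMT3A and DNMT3B, and DNMT3L, which has no catalytic activity of its own, binds both and stimulates them. At each replication fork UHRF1 recognises hemimethylated CpGs and recruits DNMT1, which copies the mark onto the new strand, while the chromatin remodeller HELLS gives the methyltransferases access to nucleosomal DNA. ZFP57 binds a methylated motif in imprinting control regions and recruits TRIM28, a scaffold for heterochromatin proteins that keeps these regions and many retrotransposons methylated in ESCs. TET enzymes act on the opposite side, by oxidising 5-methylcytosine.

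Tet1 fell from a mean of 133 to 30.1 scaled TPM in TKO against WT at 0 h, and Tet2 from 51.8 to 7.45 (limma, adjusted p = 1.45e-06 and 3.25e-07). Tet3 stood at 1.45 scaled TPM in both genotypes and its label could not be checked by level. Scaled TPM here are the deposited TPM, a length-corrected share of a library, divided by a median-of-ratios size factor. Transcript levels of 7 pluripotency markers summed to 3712 to 3849 scaled TPM in WT and to 3243 to 3298 in TKO at 0 h, and to 4148 to 4358 in WT and 3414 to 3787 in TKO at 4 h. This sum was lower in TKO, like most members, and its part in their changes was not tested. Lists for 2 other cell types were low: 6 primitive endoderm markers summed to 3.70 to 5.04 scaled TPM, and 7 fibroblast markers to 8.39 to 14.8, with Lum at 0 in both WT libraries at 0 h. The fibroblast sum was 8.39 to 8.82 in WT and 11.9 to 12.3 in TKO at 0 h, and its part in the results on the members was not tested. The sum of 6 primed epiblast markers was 19.9 to 22.7 scaled TPM in WT and 25.2 to 26.1 in TKO at 0 h, with none at 0, and its part was not tested either. The 2 TKO libraries at 4 h differed from each other by 7.40 times the chi-square expected from read sampling, against 1.53 to 4.32 in the other ribodepleted pairs, so changes that rest on them are also given without each of them.

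In the NCBIM37 assembly of the deposited data, Dnmt1 lies at chr9:20711650-20757317 on the minus strand. The other 8 lie on plus strands: Dnmt3a at chr12:3806007-3914443, Dnmt3b at chr2:153475186-153513466, Dnmt3l at chr10:77504692-77526367, Uhrf1 at chr17:56442744-56462909, Uhrf2 at chr19:30105003-30168212, Hells at chr19:39005405-39045541, Zfp57 at chr17:37138108-37147580 and Trim28 at chr7:13609501-13616384. All are annotated as protein coding. Exons of Dnmt3l overlap those of Aire on the opposite strand over 67 bases, and exons of Dnmt3a overlap those of Gm10485 over 90 bases. These overlaps come from a GENCODE annotation, whereas the deposited values were counted on RefSeq genes, and whether those overlap alike was not tested. Aire stood at 2.88 to 6.74 TPM in the ribodepleted libraries and at 73.1 to 83.1 TPM in the polyA libraries, whereas Gm10485 reached at most 0.0965 TPM. The strand setting of the counting is not given in the sources used here, so reads in the shared bases cannot be assigned to one gene.

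Promoter sequences were compared because Dnmt3l and Zfp57 differed from the other members in the results that follow. All 9 members matched RefSeq promoter windows (GRCm38.p6), 18 windows in all. Each printed sequence matched the annotated strand of its own chromosome in NCBIM37 exactly once, at the coordinates given, and other chromosomes were not searched. The 250 bases before the start site are shown 5′ to 3′ with CpGs in capitals for the Dnmt3 family and Zfp57, with windows that overlap annotated exons left out.
Dnmt3a, first of 3 start sites (chr12:3806730-3806979, plus strand): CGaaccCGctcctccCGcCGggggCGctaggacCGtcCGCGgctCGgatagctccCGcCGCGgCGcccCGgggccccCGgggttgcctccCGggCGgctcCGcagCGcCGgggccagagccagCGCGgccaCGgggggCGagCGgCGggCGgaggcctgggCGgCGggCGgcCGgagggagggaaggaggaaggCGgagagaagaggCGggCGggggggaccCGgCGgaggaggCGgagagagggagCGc
Dnmt3b (chr2:153474935-153475184, plus strand): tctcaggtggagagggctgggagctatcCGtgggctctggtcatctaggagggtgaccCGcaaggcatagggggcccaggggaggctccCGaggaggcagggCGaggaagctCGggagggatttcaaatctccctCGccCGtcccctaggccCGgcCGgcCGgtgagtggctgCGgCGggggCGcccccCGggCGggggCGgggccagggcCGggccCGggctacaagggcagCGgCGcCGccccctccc
Dnmt3l, second of 3 start sites (chr10:77512337-77512586, plus strand): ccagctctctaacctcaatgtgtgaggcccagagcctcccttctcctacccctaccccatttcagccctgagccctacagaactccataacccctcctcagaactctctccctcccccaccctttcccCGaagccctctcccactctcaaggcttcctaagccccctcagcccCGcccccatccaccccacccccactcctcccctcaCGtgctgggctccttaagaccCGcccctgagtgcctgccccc
Dnmt3l, last of 3 start sites (chr10:77517830-77518079, plus strand): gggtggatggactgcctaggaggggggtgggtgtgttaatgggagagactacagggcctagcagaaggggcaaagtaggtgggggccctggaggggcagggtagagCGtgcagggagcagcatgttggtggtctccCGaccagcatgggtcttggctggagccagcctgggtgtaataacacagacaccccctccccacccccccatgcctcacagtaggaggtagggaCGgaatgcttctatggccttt
Zfp57, first of 3 start sites (chr17:37137858-37138107, plus strand): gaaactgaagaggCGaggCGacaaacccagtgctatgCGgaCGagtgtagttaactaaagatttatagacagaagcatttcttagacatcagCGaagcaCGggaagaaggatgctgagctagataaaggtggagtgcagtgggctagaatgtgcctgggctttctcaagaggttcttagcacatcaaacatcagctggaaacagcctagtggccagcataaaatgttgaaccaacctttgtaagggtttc
The Dnmt3a and Dnmt3b windows held 38 and 21 CpGs, which was more than 98.1% and 83.7% of the 32851 windows of this length. The Dnmt3l windows, 3 in all, held 5, 4 and 3 CpGs, and those of Zfp57 held 6, 7 and 3, near or below the median of 6 over all windows. The Hells window held 28 CpGs, the Uhrf2 window 23 and the Trim28 window 17. Dnmt1 and Uhrf1 each had a window rich in CpGs, with 26 and 30, beside poorer ones with 2 to 10. No window of Dnmt3l or Zfp57 thus held more than 7 CpGs.

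Maintenance methylation is tied to replication, so the letters TTTCCCGC and TTTGGCGC, 2 common forms of the E2F motif of S phase genes, were searched on both strands in windows from 250 bases before to 50 after the start. Of all windows, 1.56% held a match. Among the members, Hells and Dnmt1 had 1 match each, shown in capitals within 30 bases.
Hells (chr19:39005407-39005436, plus strand): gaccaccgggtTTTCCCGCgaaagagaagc
Dnmt1, last of 3 start sites (chr9:20757018-20757047, minus strand): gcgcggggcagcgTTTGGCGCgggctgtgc
The Hells match starts 62 bases before the RefSeq start site, in a stretch that the NCBIM37 annotation places within a Hells exon, and the Dnmt1 match lies within the first 50 bases after it. A match describes letters and not a bound factor.

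Trim28 was the most abundant of the 9 transcripts in every group. In deposited TPM it ranged from a mean of 1106 ± 5.77 (SD, n = 3) in the polyA libraries to 1507 ± 68.4 (SD, n = 2) in WT at 4 h, which was 36.4% to 47.6% of the sum over the members. Second place differed by group. It was held by Hells in WT ribodepleted libraries, with 356 ± 28.5 TPM at 0 h (SD, n = 2), and by Dnmt3l in TKO libraries, with 398 ± 0.862 TPM at 0 h (SD, n = 2). Dnmt3l was also second in the polyA libraries, with 635 ± 8.07 TPM (SD, n = 3). Dnmt3a and Uhrf2 were the 2 lowest in all groups. Dnmt3a was above Uhrf2 in WT at 0 h, with 31.8 ± 1.49 against 27.3 ± 0.925 TPM, and below it in TKO at 0 h, with 26.2 ± 0.483 against 30.9 ± 0.144 TPM (SD, n = 2). Neighbours in the order overlapped in 1 case, Hells and Uhrf1 in TKO at 4 h. Each member was covered by at least 1337 recovered reads in every ribodepleted library and by at least 3213 in every polyA library.

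The first comparison asked how the methylation machinery differed between WT and TKO cells. At 0 h, 6 members were lower and 1 was higher in TKO (limma, adjusted p under 0.05), against 28.2% and 27.9% of the 12463 genes tested, and 56.1% in either direction. None of these changes exceeded 1.5-fold, a size that 15.9% of tested genes passed. The libraries of the genotypes did not overlap for any member at 0 h, 2 being higher in TKO and 7 lower, and over tested genes 39.1% and 42.6% were apart in these directions. The members' median change was -0.15 on the log2(scaled TPM + 1) scale, beside -0.02 for all tested genes. At 4 h, 6 members were lower and 0 higher, against backgrounds of 30.3% and 29.1%, and 59.4% in either direction, with a median of -0.27 beside -0.01 for all genes. None exceeded 1.5-fold at 4 h either (16.8% of tested genes), but Dnmt3a did without TKO 4 h replicate 2 (-0.61) and with no filter on low values (-0.60). At that time 8 members were apart, 1 higher and 7 lower, against 38.4% and 39.9% of tested genes. Without size factors the median of all genes moved from -0.01 to 0.14 at 4 h, and the tested genes split into 5035 higher and 2066 lower in place of 3622 and 3777. At 0 h that split was 4168 higher and 2191 lower in place of 3472 and 3515. On that scale 4 members were lower at 4 h (Dnmt3a, Dnmt3b, Hells and Trim28) and 3 at 0 h (the same without Hells), and Dnmt3l and Uhrf2 were higher at both times. Dnmt3a, Dnmt3b and Trim28 were lower at both times under every scaling and other setting tried apart from the omission of libraries.

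**Figure D1:**
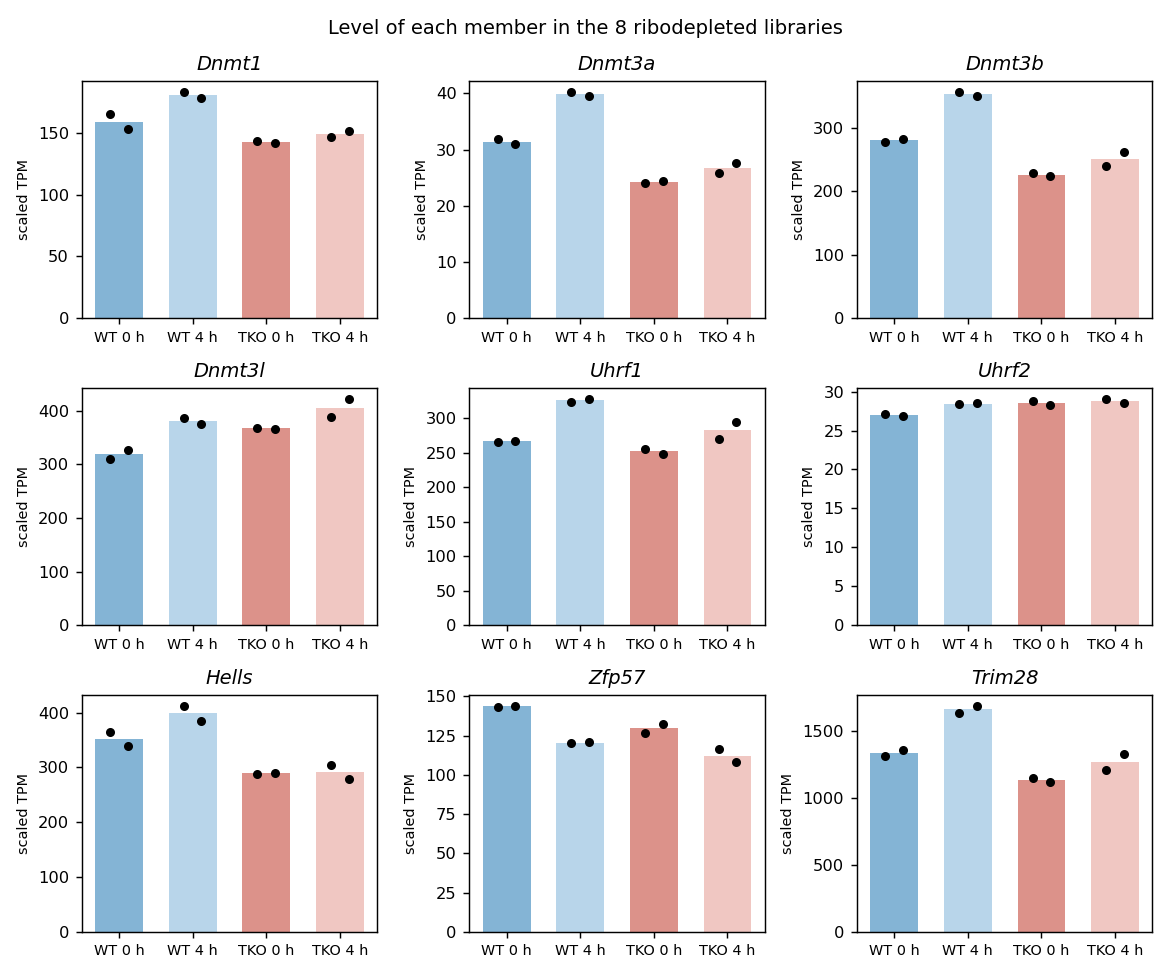
Scaled TPM (vertical axes, from 0) of each of the 9 members in the 8 ribodepleted libraries, with a bar for the mean of each group and a point for each library (n = 2). Dnmt3a, Dnmt3b, Hells and Trim28 are lower in every TKO library than in every WT library at the same time. Dnmt1, Uhrf1 and Zfp57 are lower in this way too, with smaller log2 changes. Dnmt3l is higher in TKO at 0 h, and by little at 4 h.

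Among the de novo enzymes, Dnmt3a showed the largest change of the 9. Dnmt3a stood at 31.8 and 31.0 scaled TPM in WT at 0 h and at 24.0 and 24.5 in TKO, and at 4 h it stood at 40.2 and 39.6 in WT and at 25.8 and 27.7 in TKO. All TKO libraries lay below all WT libraries. The log2 change was -0.36 (SE 0.05, limma adjusted p = 0.000463) at 0 h and -0.56 (SE 0.05, limma adjusted p = 3.47e-05) at 4 h. Dnmt3b, the de novo enzyme with the higher level, stood at 278 and 283 scaled TPM in WT at 0 h and at 228 and 224 in TKO, and at 4 h it stood at 356 and 349.6 in WT and at 241 and 262 in TKO. The TKO libraries were again below the WT libraries at both times, without overlap. Its log2 change was -0.31 (SE 0.05, limma adjusted p = 0.000885) at 0 h and -0.49 (SE 0.05, limma adjusted p = 5.97e-05) at 4 h. Without TKO 4 h replicate 1 and without TKO 4 h replicate 2, the 4 h changes were -0.51 and -0.61 for Dnmt3a and -0.42 and -0.55 for Dnmt3b.

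Dnmt3l, the cofactor of both enzymes, moved the other way at 0 h. It stood at 311 and 328 scaled TPM in WT at 0 h and at 369 and 367 in TKO, and at 4 h it stood at 387 and 375 in WT and at 389 and 422 in TKO. The libraries of the genotypes were apart at both times, by 39.0 scaled TPM at 0 h and by 2.14 at 4 h. The log2 change was 0.20 (SE 0.05, limma adjusted p = 0.0111) at 0 h and 0.09 (SE 0.05, limma adjusted p = 0.187) at 4 h. The rise at 0 h lost its call when TKO 0 h replicate 1, TKO 0 h replicate 2 or WT 0 h replicate 1 was left out, where the change lay between 0.16 and 0.24 over all omissions. At 4 h the change passed the test with deposited TPM (0.25), with quantile normalization (0.30) and without TKO 4 h replicate 1 (0.15).

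Ratios of members within a library, taken on deposited TPM, do not change when the library is divided by 1 factor. Quantile normalization, in contrast, can change them. They were chosen after the values were seen and are given as a description. The ratio of Dnmt3l to Dnmt3a was 9.76 and 10.6 in WT at 0 h, 9.64 and 9.49 in WT at 4 h, 15.4 and 15.0 in TKO at 0 h and 15.1 and 15.3 in TKO at 4 h. The ratio of Dnmt3l to Dnmt3b was between 1.07 and 1.16 in the 4 WT libraries and between 1.61 and 1.64 in the 4 TKO libraries. Both ratios were higher in every TKO library than in every WT ribodepleted library, and within a genotype they changed little with α-amanitin in deposited TPM. The ratio of Dnmt3b to Dnmt3a was 8.74 to 9.14 in WT and 9.17 to 9.49 in TKO. It was also higher in every TKO library, but by little, so the de novo enzymes kept nearly the same proportion to each other.

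**Figure D2:**
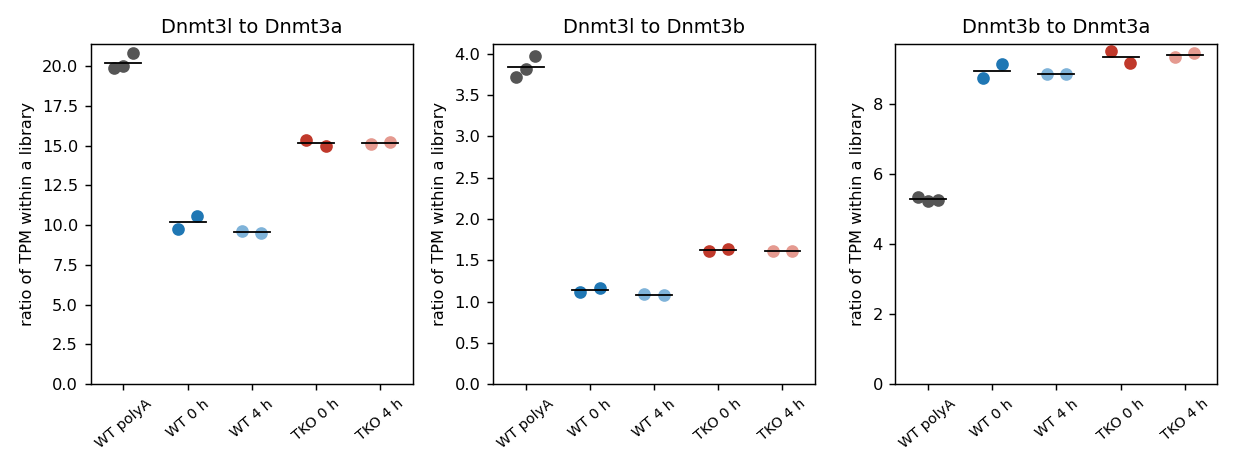
Ratios of TPM between pairs of Dnmt3 family transcripts within each library (vertical axes, from 0), by group, with a point for each library and a line at the mean (n = 3 for WT polyA and n = 2 for the other groups). Dnmt3l to Dnmt3a lies between 9.49 and 10.6 in WT ribodepleted and between 15.0 and 15.4 in TKO libraries, and polyA libraries stand apart in all 3 panels.

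In the maintenance group, Dnmt1 stood at 165 and 153 scaled TPM in WT at 0 h and at 144 and 142 in TKO, and at 4 h it stood at 183 and 178 in WT and at 147 and 151 in TKO. The gap at 0 h was smaller than the spread of the WT pair, and at 4 h it was larger. The log2 change was -0.15 (SE 0.05, limma adjusted p = 0.0245) at 0 h and -0.27 (SE 0.05, limma adjusted p = 0.0012) at 4 h. Both calls were lost with deposited TPM and with quantile normalization, where the 4 h changes were -0.12 and -0.06. The 4 h change of Dnmt1 was -0.25 and -0.29 without TKO 4 h replicate 1 and replicate 2 in turn.

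Uhrf1, the reader of hemimethylated DNA, stood at 266 and 267 scaled TPM in WT at 0 h and at 256 and 249 in TKO, and at 4 h it stood at 324 and 328 in WT and at 270.4 and 295 in TKO. The TKO libraries were lower at both times, by little at 0 h. The change of -0.08 at 0 h did not pass the test (SE 0.05, limma adjusted p = 0.207) and that of -0.21 at 4 h did (SE 0.05, limma adjusted p = 0.00724), but with quantile normalization they turned to 0.06 and 0.03, and with deposited TPM the 0 h change was 0.01 and the 4 h call was lost. Without TKO 4 h replicate 1 and replicate 2 in turn, the 4 h change of Uhrf1 was -0.14 and -0.27. Uhrf2, its paralogue, stood between 26.9 and 29.0 scaled TPM in all 8 ribodepleted libraries, with changes of 0.08 and 0.02 that did not pass the test (limma, adjusted p = 0.181 and 0.773). With deposited TPM, in contrast, the Uhrf2 changes were 0.17 at both times and passed (limma, adjusted p = 0.0479 and 0.0447). In scaled TPM, the Uhrf2 values varied least among the 9 members, over a range of 0.11 on the log2 scale. In deposited TPM they ran from 25.3 to 31.0, relatively wider than the 265 to 302 of Uhrf1.

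Hells stood at 365 and 339 scaled TPM in WT at 0 h and at 288 and 290.2 in TKO, and at 4 h it stood at 412 and 385 in WT and at 304 and 278 in TKO. Every TKO library was below every WT library. The log2 change was -0.28 (SE 0.06, limma adjusted p = 0.00445) at 0 h and -0.45 (SE 0.06, limma adjusted p = 0.000278) at 4 h. The first call was lost with deposited TPM and with quantile normalization. The 4 h change of Hells was -0.51 and -0.39 without TKO 4 h replicate 1 and replicate 2 in turn.

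Transcripts of the replication machinery were read beside the maintenance genes. The summed level of 20 S phase replication genes was 3899 to 3903 scaled TPM in WT at 0 h, 4376 to 4441 in WT at 4 h, 3354 to 3419 in TKO at 0 h and 3527 to 3723 in TKO at 4 h. Of the 20, 10 were lower, 1 was higher (Cdc6, a helicase loader, 0.40) and 9 did not pass in TKO at 0 h (limma, adjusted p under 0.05), against 28.2% and 27.9% of tested genes. Among those lower were Ccne1, the G1/S cyclin E1, with a log2 change of -0.78, and Mcm5, a subunit of the replicative helicase and the most abundant of the list, with -0.24. The part of these levels in the results on Dnmt1, Uhrf1 and Hells was not tested.

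In the imprint protection pair, Zfp57 stood at 143 and 144 scaled TPM in WT at 0 h and at 127 and 133 in TKO, and at 4 h it stood at 120.5 and 121 in WT and at 116 and 108 in TKO. The TKO libraries were slightly lower at both times. The log2 change was -0.15 (SE 0.05, limma adjusted p = 0.0271) at 0 h and -0.10 (SE 0.05, limma adjusted p = 0.0955) at 4 h, with deposited TPM the values were -0.05 and 0.05, and with quantile normalization they were -0.04 and 0.02. The call at 0 h held in 2 of the 8 fits that left out a library, and the 4 h change of Zfp57 was -0.15, past the test, without TKO 4 h replicate 1 and -0.05 without replicate 2. Trim28 stood at 1318 and 1356 scaled TPM in WT at 0 h and at 1152 and 1121 in TKO, and at 4 h it stood at 1637 and 1689 in WT and at 1212 and 1328 in TKO. The genotypes did not overlap for Trim28 at either time. Its log2 change was -0.23 (SE 0.06, limma adjusted p = 0.0121) at 0 h and -0.39 (SE 0.06, limma adjusted p = 0.000772) at 4 h. The 4 h change of Trim28 was -0.32 and -0.45 without TKO 4 h replicate 1 and replicate 2 in turn.

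Small differences such as those at 0 h rested on few libraries. Leaving out a 0 h library left 1 in its group, and then fewer of the 7 members passed, as did fewer of all tested genes. Over the 8 omissions the changes lay between -0.38 and -0.35 for Dnmt3a, -0.33 and -0.30 for Dnmt3b, and -0.34 and -0.23 for Hells. They lay between -0.21 and -0.11 for Dnmt1, -0.18 and -0.12 for Zfp57, and -0.26 and -0.22 for Trim28.

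The next comparison asked which transcripts changed in share during 4 h with α-amanitin. How far transcription was blocked was not tested. TPM are shares, so a transcript can be higher at 4 h when others are lost faster. In WT cells, 7 members were higher and 1 was lower at 4 h (limma, adjusted p under 0.05), against 21.9% and 15.8% of tested genes, 37.7% in either direction, and none by over 1.5-fold (2.10% of tested genes). The median change of the members was 0.26, beside 0.03 for all tested genes. With deposited TPM the median of all genes moved to -0.11 and the genes that passed split into 397 higher and 3145 lower in place of 2730 and 1965, and then 4 members were higher (Dnmt3a, Dnmt3b, Uhrf1 and Trim28) and 1 was lower (Zfp57).

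The Dnmt3 family rose in WT. The change was 0.34 for Dnmt3a (SE 0.05, limma adjusted p = 0.00584), 0.33 for Dnmt3b (SE 0.05, limma adjusted p = 0.00574) and 0.26 for Dnmt3l (SE 0.05, limma adjusted p = 0.0101). With deposited TPM these were 0.18, 0.17 and 0.10, and with quantile normalization 0.32, 0.16 and 0.07, where Dnmt3l did not pass in either. Dnmt3a and Dnmt3b lay above 97.3% and 97.0% of tested genes in this change. Trim28 rose by 0.31 (SE 0.06, limma adjusted p = 0.0088) and Uhrf1 by 0.29 (SE 0.05, limma adjusted p = 0.00686), or by 0.15 and 0.13 with deposited TPM. Dnmt1 and Hells rose by 0.18 each (limma, adjusted p = 0.0202 and 0.0475), but with deposited TPM both showed 0.02 and did not pass, and the Hells change was -0.01 with quantile normalization. Uhrf2 showed 0.07 and did not pass (limma, adjusted p = 0.234), with -0.08 for deposited TPM.

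Zfp57 was the only one of the 9 that passed the test as lower. Its change was -0.25 on the log2 scale (SE 0.05, limma adjusted p = 0.00779), with -0.41 for deposited TPM and -0.35 with quantile normalization. The ratio of Trim28 to Zfp57 accordingly went from 9.19 and 9.42 in WT at 0 h to 13.6 and 14.0 at 4 h. With a WT library left out, 1 library stood for its group, and fewer members and fewer of all tested genes passed in WT. Over the 8 omissions the change lay between -0.26 and -0.24 for Zfp57, and between 0.32 and 0.35 for both Dnmt3a and Dnmt3b. The WT values at 4 h did not overlap those at 0 h for any of the 9 members, and over all tested genes 40.5% were apart in the higher direction and 32.5% in the lower.

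In TKO cells, 0 of the 9 members passed the test between 0 h and 4 h (limma), where 0.265% of tested genes did, and none differed by over 1.5-fold (0.160% of tested genes). At an unadjusted p under 0.05 there were 3111 such genes, and limma voom on recovered reads gave 1 member, Zfp57. The changes were 0.16 for Uhrf1 and Trim28, 0.15 for Dnmt3b, 0.14 for Dnmt3l, 0.13 for Dnmt3a, 0.06 for Dnmt1, 0.01 for Hells and Uhrf2, and -0.20 for Zfp57 (limma, adjusted p between 0.104 and 0.954). Without TKO 4 h replicate 1, the changes were 0.19 to 0.23 for Dnmt3a, Dnmt3b, Dnmt3l, Uhrf1 and Trim28, and -0.25 for Zfp57. More members and far more of all tested genes passed in that fit than with all libraries. Over the 8 omissions the Dnmt3b change lay between 0.09 and 0.21. A fit without either TKO 4 h replicate rests on 1 TKO library at 4 h, which is assumed to vary like the others. Over all TKO libraries, the values at 4 h and 0 h did not overlap for 7 members, 6 higher at 4 h and 1 lower, where 32.7% and 26.0% of tested genes were apart in these directions.

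Whether the change with α-amanitin differed between the genotypes was tested by the interaction, the TKO change minus the WT change. None of the 12463 genes passed (limma), 938 had an unadjusted p under 0.05, and voom gave none as well. The members' estimates were -0.20 (SE 0.07) for Dnmt3a, -0.18 (SE 0.07) for Dnmt3b, -0.17 (SE 0.09) for Hells, -0.16 (SE 0.09) for Trim28 and 0.05 (SE 0.07) for Zfp57. Those of Uhrf1, Dnmt1, Dnmt3l and Uhrf2 lay between -0.13 and -0.06 (limma, adjusted p between 0.662 and 0.845 for the 9). A difference between the genotypes was not detectable at this number of libraries. These contrasts share libraries with each other, so the estimates at 0 h, at 4 h and of the interaction are not independent.

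**Figure D3:**
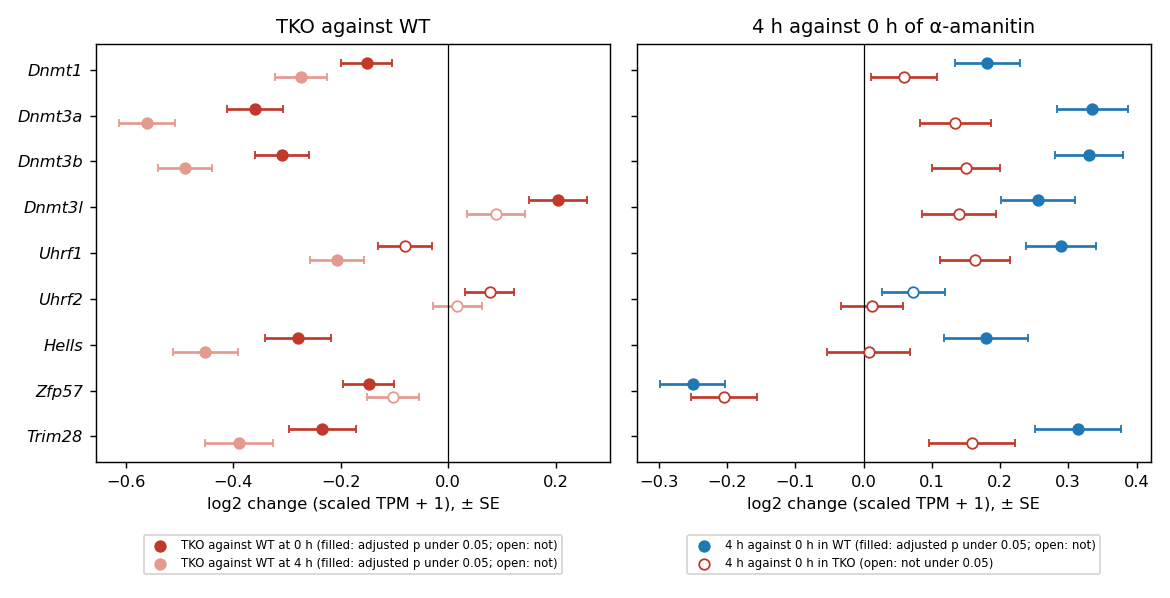
Log2 changes of scaled TPM + 1 with their SE for the 9 members (horizontal axes), between genotypes at each time on the left and between 4 h and 0 h in each genotype on the right. Filled points had a limma adjusted p under 0.05: 7 members at 0 h and 6 at 4 h between genotypes, 8 in WT and 0 in TKO with α-amanitin.

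The third comparison set the WT polyA libraries beside the WT ribodepleted libraries at 0 h, in a fit of their own over 12474 genes. The libraries differ in RNA selection and in experiment, and these cannot be told apart. All 9 members passed the test, 2 higher and 7 lower in polyA libraries, against 40.2% and 40.8% of tested genes (81.0% in either direction). By over 1.5-fold 2 members were higher and 2 lower, against 18.7% and 16.4% of tested genes (35.1% in either direction). Zfp57 differed most. It stood at 422, 442 and 404 scaled TPM in the polyA libraries and at 151 and 152 in the ribodepleted libraries, a log2 difference of 1.47 (SE 0.04, limma adjusted p = 1.76e-08). Dnmt3l was also higher in polyA libraries, with 608, 610 and 631 scaled TPM against 328 and 346, a difference of 0.87 (SE 0.04, limma adjusted p = 2.14e-07). The promoter windows were compared because these 2 members differed, so their low CpG counts do not test a link with this difference.

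Dnmt3b was lower in polyA libraries, with 164, 159.6 and 159 scaled TPM against 293 and 299, a log2 difference of -0.88 (SE 0.03, limma adjusted p = 7.58e-08). Dnmt1 was lower too, with 111, 109 and 102 against 174 and 162, a difference of -0.64 (SE 0.05, limma adjusted p = 3.2e-06), and with deposited TPM this difference of -0.54 was under 1.5-fold. Trim28, Hells, Uhrf1, Uhrf2 and Dnmt3a were lower by less, with differences from -0.39 to -0.12, of which that of Trim28 was -0.63 and over 1.5-fold with quantile normalization. The Dnmt3a difference of -0.12 (SE 0.04, limma adjusted p = 0.0204) did not pass with deposited TPM (-0.02), quantile normalization (-0.06) or a replicate block (-0.11), and it passed in 1 of the 5 fits that left out a library, that without WT 0 h replicate 2 (-0.15). The ratio of Trim28 to Zfp57 was 2.41 to 2.68 in the polyA libraries, and that of Dnmt3l to Dnmt3a was 19.9 to 20.8. Both ratios lay farther from those of WT at 0 h than the ratios of any other group did.

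**Figure D4:**
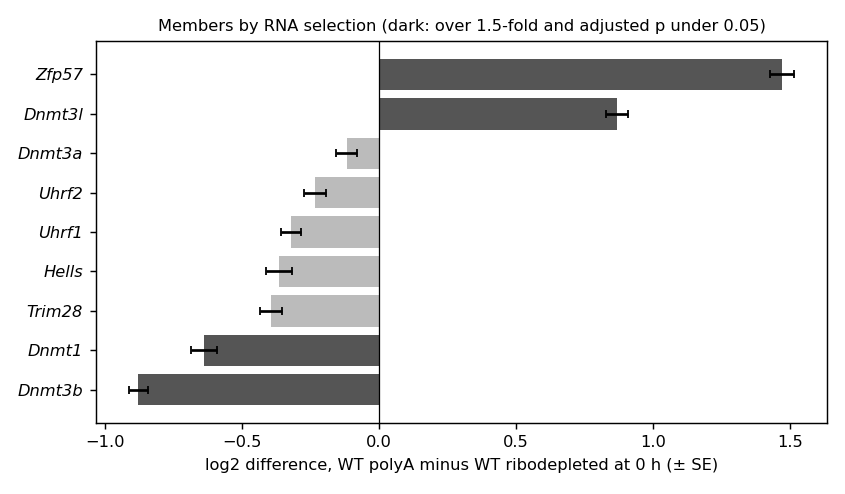
Log2 difference of scaled TPM + 1 between WT polyA (n = 3) and WT ribodepleted libraries at 0 h (n = 2) for the 9 members, with SE (horizontal axis). Zfp57 at 1.47 and Dnmt3l at 0.87 are the only 2 members above 0, and dark bars mark the 4 members over 1.5-fold.

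Related genes were read from lists for the same pathway, in TKO against WT at 0 h, where 28.2% of tested genes were lower and 27.9% higher. All lists were chosen with earlier results of these data known, so their counts describe the listed genes and do not test a class of genes. Of 13 regulators and partners of the methyltransferases, 8 were lower, 0 were higher and 5 did not pass the test (limma, adjusted p under 0.05), with a median of -0.21. Ehmt2, the histone H3 lysine 9 methyltransferase G9a, stood between 128 and 133 scaled TPM in WT and between 78.4 and 79.4 in TKO, a log2 change of -0.72 (limma, adjusted p = 1.42e-05). Pcna, the sliding clamp that DNMT1 binds at the replication fork, showed -0.27 and was the most abundant of the list. Of 10 heterochromatin partners of Trim28, 6 were lower and 2 were higher. Cbx1, an HP1 protein and the most abundant of the list, showed 0.27. The other HP1 genes of the list, Cbx3 and Cbx5, were lower, with -0.42 and -0.44. Of 7 methyl-CpG readers tested, 3 were lower and 1 was higher, with Mbd3, the most abundant, at -0.36, and the share that passed was near the 56.1% of all tested genes. Of 7 enzymes that supply methyl groups, 2 were higher and 0 lower, with Mat2a, which makes the methyl donor S-adenosylmethionine, at 0.32, a share higher that was near the background.

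Germline and imprinted genes, which are known to depend on DNA methylation, gave another pattern. Their lists too were chosen with earlier results known, so the counts are given as a description. Of 10 germline genes tested, 8 were higher and 0 lower in TKO at 0 h, all 8 by over 1.5-fold, against 10.5% of tested genes in that direction. Tex19.1, a guard of germ cells against retrotransposons, stood at 32.2 to 33.7 scaled TPM in WT and at 147 to 151 in TKO, a log2 change of 2.15 (limma, adjusted p = 2.25e-08). Mael and Taf7l showed 1.31 and 1.08 at low levels. Their means in WT and TKO were 3.33 and 9.66 scaled TPM for Mael and 0.791 and 2.77 for Taf7l. At 4 h 8 germline genes were higher and 1 lower, against 29.1% and 30.3% of tested genes. Of these rises 6 were over 1.5-fold, a size that 16.8% of tested genes passed in either direction. Of 13 imprinted transcripts tested, 5 were higher and 7 lower, against 27.9% and 28.2% of tested genes. H19, a maternally expressed noncoding RNA, stood at 7.82 to 8.38 scaled TPM in WT and at 210.1 to 211 in TKO, a log2 change of 4.54 (limma, adjusted p = 1.71e-08), and Peg10 showed 0.96. Grb10, Meg3 and Impact were lower, with -0.83, -0.68 and -0.59. The members' own changes at 0 h, from -0.36 to 0.20, were small beside these.

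**Figure D5:**
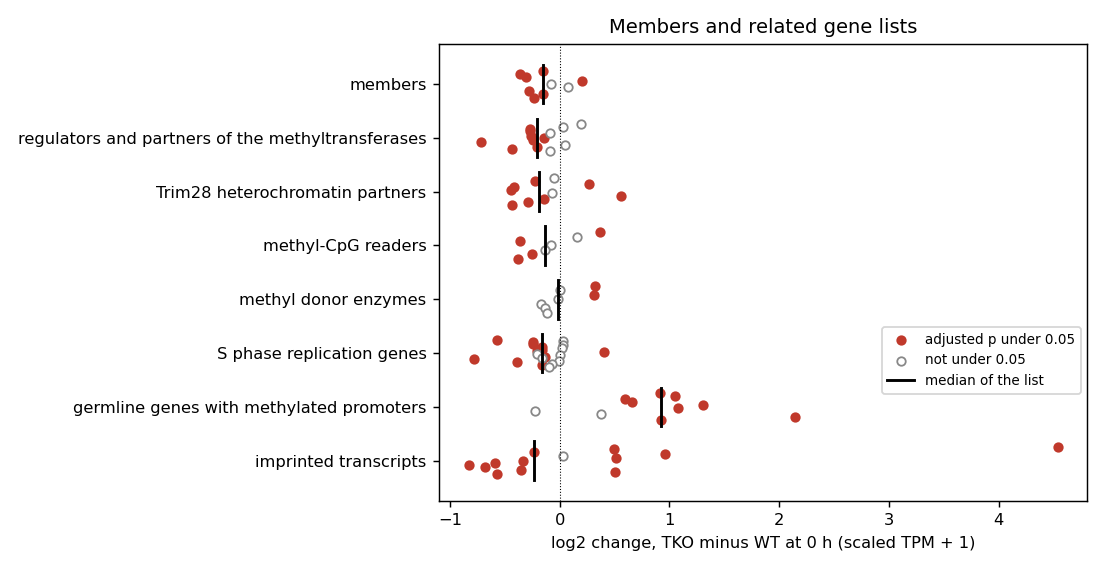
Log2 change in TKO against WT at 0 h (horizontal axis) of the 9 members and of 7 lists of related genes, with a point for each gene tested, filled where the limma adjusted p was under 0.05, and a line at the median of each list. The members and their regulators lie mostly below 0, the germline genes mostly above 0, and H19 is the farthest point at 4.54.

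Across the 8 ribodepleted libraries, Dnmt1, Dnmt3a, Dnmt3b and Trim28 followed each other. Pearson's r was 0.99 between Dnmt3a and Dnmt3b, 0.98 between Dnmt3a and Dnmt1 and 0.97 between Dnmt3a and Trim28, as a description over 8 libraries that form 4 pairs. Dnmt3l followed none of them (r from -0.09 to 0.09), but its r was 0.84 with Uhrf2 and -0.96 with Zfp57. With Dnmt1, Dnmt3a, Dnmt3b and Trim28, Hells had r of 0.84 to 0.94 and Uhrf1 had r of 0.86 to 0.94. Among all tested genes, those most like Dnmt3b in this sense were Etv4 and Mars, and those most like Dnmt1 were Ipo8 and Abr. Those most like Dnmt3l were Trnau1ap and Skp1a, and those most like Zfp57 were Kctd15 and Klf3, all with r of at least 0.99.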

How the data were processed

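RNA-seq libraries of mouse ESCs were analysed (11, in 5 groups taken from the sample titles). The authors deposited 1 value per gene in TPM. Per their methods and processing notes, low-complexity, rRNA and tRNA reads were removed (AfterQC, Bowtie2), adapters were trimmed (Trimmomatic), and reads were aligned to mm9 with STAR and counted on RefSeq genes with HTSeq. Versions and the strand setting are not given in the sources used here. Whole reads were recovered from the steps of the TPM values for 100% of 19041 genes above 0 in 2 or more libraries (within 0.01 reads), with totals of 72639762 to 82129069 reads per polyA and 25507806 to 29781275 per ribodepleted library.

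TPM were scaled by median-of-ratios factors. For genes with a mean above 1, log2(scaled TPM + 1) entered limma 3.58.1 (R 4.3.3, eBayes with trend, two-sided, Benjamini-Hochberg over all tested genes), in one fit for the 8 ribodepleted libraries and another for polyA against WT 0 h. A gene passed at an adjusted p under 0.05, and a change counted as large over 1.5-fold on this scale, where changes of low genes come out too small. The procedure was tested on simulated data. The authors used DESeq2 on counts; the deposited unit is TPM, so no count model was fitted, and limma voom on recovered reads was an alternative.

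The members and lists were chosen with earlier results of these data known. Named genes were the members, the Tet genes and the most abundant gene of each list. Up to 3 rises and 3 falls over 1.5-fold per list in TKO against WT at 0 h were also named. So were the 2 genes most like each member that differed by over 1.5-fold in any contrast. Cbx3 and Cbx5 were named beside Cbx1. Lists of pluripotency, primed epiblast, primitive endoderm and fibroblast markers checked the cell type. Alternatives were deposited TPM, quantile normalization, pseudocounts of 0.1 and 5 TPM, filters of none and 5 TPM, the replicate number as a block, calls without the fold threshold, eBayes without a trend, the contrast's libraries only, abundant genes left out before scaling, voom, and each library left out. Promoter windows were taken from RefSeq (GRCm38.p6) and matched to NCBIM37. Gene positions and exons in NCBIM37 were taken from a GENCODE annotation.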

Additional observations from a re-analysis of the deposited data

How the results depend on the processing

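A pair of libraries per group limits what small changes can show, and TPM cannot show a change shared by all transcripts. Of the members' values, the Dnmt3a and Dnmt3b calls between genotypes and in WT with α-amanitin kept their direction and an adjusted p under 0.05 in every alternative and omission. Dnmt3a at 4 h passed 1.5-fold with no filter and without TKO 4 h replicate 2. Members that passed, with 7, 8 and 0 in TKO against WT at 0 h, WT 4 h against 0 h and TKO 4 h against 0 h, numbered 4, 4 and 0 with quantile normalization, and 5 in WT with deposited TPM. Voom gave 1 in TKO. The number of members that passed moved when a library was left out, as did that of all tested genes, with 1 library then standing for its group. The genes over 1.5-fold, with 1984 at 0 h, 2099 at 4 h, 262 in WT, 20 in TKO, 0 for the interaction and 4382 for polyA, numbered 904, 998 and 149 with a pseudocount of 5 TPM for the first 3 and 2857 for polyA. With no fold threshold they numbered 6987, 7399, 4695, 33 and 10102 (polyA), and with a mean over 5 TPM 1199, 1298 and 33 (TKO). In WT, deposited TPM gave 589, a pseudocount of 0.1 gave 407, voom gave 416, and leaving out a library gave 147 to 288. In TKO, deposited TPM and voom gave 53, quantile normalization 31, a pseudocount of 0.1 gave 1, no filter 4, no variance trend 0, the contrast's libraries alone 9, and leaving out a library 0 to 143. For the interaction, no filter gave 4 and leaving out a library 0 to 8. Changes that turned sign were, in TKO against WT at 0 h, Uhrf1 with deposited TPM (0.015) and quantile normalization (0.063). At 4 h they were Uhrf1 (0.026), Uhrf2 (-0.0092) and Zfp57 (0.023) with quantile normalization, Zfp57 with deposited TPM (0.054) and Uhrf2 with no filter (-0.023). In WT they were Hells with quantile normalization (-0.0068) and Uhrf2 with deposited TPM (-0.081). In TKO they were Dnmt1 and Hells with deposited TPM (-0.038 and -0.090) and quantile normalization (-0.014 and -0.070), Hells with a mean over 5 TPM (-0.0012), with the contrast's libraries alone (-0.0059), and Uhrf2 with deposited TPM (-0.082) and the contrast's libraries alone (-0.00026). Leaving out a library, the Hells change in TKO lay between -0.053 (without TKO 4 h replicate 1) and 0.071. The cause was not tested. Replicate numbers are shared between groups, but deviations of libraries with the same number correlated at only -0.04 to 0.12. With a replicate block 7, 6, 8, 0 and 0 members passed in the ribodepleted contrasts and 8 of 9 in the polyA contrast, with 1988, 2103, 273, 18, 0 and 4355 genes over 1.5-fold.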

Other observations

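Single markers of the cell state also differed in TKO against WT at 0 h. Of 7 pluripotency markers, 5 were lower and 1 was higher (limma, adjusted p under 0.05). Zfp42, a transcription factor of naive ESCs, stood at 482 to 497 scaled TPM in WT and at 113 to 117 in TKO, a log2 change of -2.08, and Klf4 and Esrrb showed -0.97 and -0.74. Dppa5a, the most abundant of the list, showed 0.22. Of 6 primed epiblast markers, 3 were higher and 1 was lower, the latter at -0.41, and 2 rises were over 1.5-fold. Fgf5 showed 1.11, Sox3 0.89 and Pou3f1 0.52. Levels were low, with Fgf5 at means of 0.389 scaled TPM in WT and 1.99 in TKO. In WT at 0 h, 3 of the 6 markers had a mean under 1 scaled TPM. Gata4 and Dab2, markers of primitive endoderm, showed -0.61 and 0.47, and the fibroblast collagen Col1a2 showed 1.18 at levels under 5 scaled TPM. The relation of these markers to the methylation genes was not tested.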
